A study of Capra hircus with 24 samples.

Results

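HOX genes encode the homeobox transcription factors that give body regions their position along the head-to-tail axis. In dermal papilla cells of cashmere goats, the mesenchymal cells at the base of the hair follicle, 37 HOX genes were present among the 20326 genes of the deposited tables. They were taken by symbol alone, as HOXA, HOXB, HOXC or HOXD followed only by a number, with 11 in HOXA, 9 in HOXB, 9 in HOXC and 8 in HOXD. HOXB4 and HOXD4 were not analysed here. RNA sequencing covered 24 libraries, 3 in each of 8 groups: secondary and primary follicle papilla cells, in October (anagen, the growth phase) and in June (early anagen), from male and from female goats. Secondary follicles make the fine cashmere and primary follicles the coarse guard hair. All groups are untreated cells from goat skin. Month and hair cycle stage go together in the labels, so the month and the stage cannot be told apart. The sources used here do not give the body site of the skin, the number of animals or whether cells were cultured.

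Mammalian HOX genes lie in the HOXA, HOXB, HOXC and HOXD clusters, and genes at the same place in different clusters are paralogs that share a number. Low numbers are used towards the head and high numbers towards the tail and the limb ends, in the order of the genes along the chromosome. Adult human fibroblasts keep the HOX pattern of the site they came from, and in mice the Hoxc genes of the dermal papilla are known for regional differences in hair growth. In the ARS1.2 goat assembly, to which 37 of 37 gene IDs matched, the order of neighbouring genes followed the paralog numbers. The gene spans of HOXB8 and HOXB9 overlap there, so the values of these genes depend on how reads were divided between them.

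Values are the authors' normalised expression signal, with library totals of 959766 to 1045876. The number of reads behind a value is not known. Error is taken from the spread between libraries of the same group, pooled over all 24 libraries in the fit. Whether the signal is scaled to transcript length is not stated, so levels are compared between groups for the same gene and not between genes. Over the 13049 genes tested, Pearson's r of log2(value + 1) was 0.993 to 0.997 between libraries of the same group and 0.954 to 0.992 between libraries of different groups. Mesenchyme markers were present, with VIM (vimentin) at 5950 to 10464, and 8 of 8 such markers reached a value of 1. Of 13 papilla markers 11 reached 1 in at least 1 library, while CORIN and HHIP stayed below it in all libraries. Among the 11, ALPL and SOX18 had medians of 0.16 and 0.49 over the libraries, and SOX2 ranged from 0 to 17.9. VCAN had 205.83 to 541.22 and RSPO3 134.32 to 282.59. Smooth muscle and sheath markers were also present, with ACTA2 at 4316 to 7969 and TAGLN at 4222 to 6538. Among 13 measured keratinocyte and hair matrix markers, 10 reached 1, and KRT1, TP63 and KRT35 did not. Their summed value was 314.04 to 340.51 in secondary October females, 100.13 to 106.42 in primary October males, and 22.12 to 77.58 in the libraries of the other 6 groups. In this sum KRT5 reached 202.77 and KRT14 82.01. MSX2, listed below among factors of position too, had 12.57 to 38.26 over all libraries. Every other measured member reached at most 13.49 (DLX3). Whether keratinocytes were present was not tested.

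Of the 37 HOX genes, 22 were detected, meaning a value of at least 1 in at least 3 libraries, 13 were weak, and 2 were listed at 0 in all 24 libraries. Detection differed between ranges of paralog number: 20 of the 25 genes numbered 1 to 9 were detected, against 2 of the 12 genes numbered 10 to 13. The other 5 of numbers 1 to 9 were weak: HOXA2, HOXA6, HOXB1, HOXB5 and HOXD1. The 2 detected members of the high numbers were HOXC10 and HOXC11, used in the lumbar and hindlimb region. The genes listed at 0 were HOXB13, known from the prostate and hindgut, and HOXD11, a limb gene. The heatmap of the members shows bright rows at some low and middle numbers, which run down to number 9 in HOXC and HOXD. Among the lowest numbers HOXB1, HOXD1 and HOXA2 stay dark, with highest values of 0.06, 0.08 and 0.53.

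**Figure D1:**
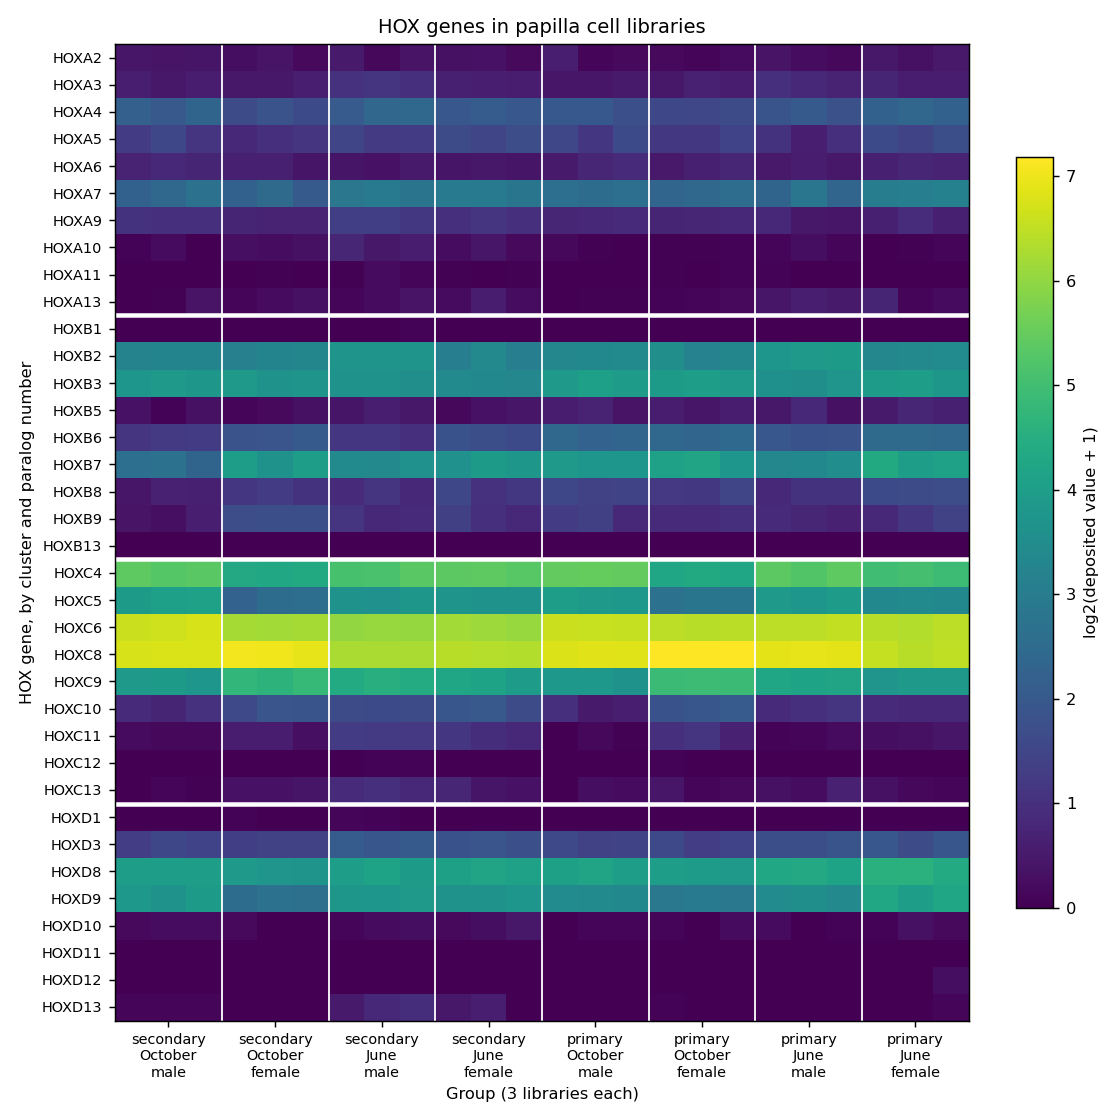
Value of 36 HOX genes (vertical axis, by cluster and paralog number) in each of the 24 libraries (horizontal axis, 3 per group), coloured by log2(value + 1). Members numbered 10 to 13 stay dark in every cluster. HOXC10 is the least dark of them, with a highest value of 3.19, and HOXC11 reaches 1.37.

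By cluster, the detected members were 6 of 11 in HOXA (HOXA3, HOXA4, HOXA5, HOXA7 and HOXA9 among them), 6 of 9 in HOXB (HOXB2, HOXB3, HOXB6, HOXB7, HOXB8 and HOXB9), 7 of 9 in HOXC (HOXC4, HOXC5, HOXC6, HOXC8, HOXC9, HOXC10 and HOXC11) and 3 of 8 in HOXD (HOXD3, HOXD8 and HOXD9). Some detected members passed narrowly. HOXA3 reached 1 in 3 libraries, all of secondary June males, HOXC11 in 5, HOXA9 in 6 and HOXB9 in 9. Just outside, HOXC13, which controls hair keratin genes in mouse and human hair, had a highest value of 0.95, HOXD13 0.93, HOXA6 0.82, HOXB5 0.76 and HOXA10 0.72. HOXA2, HOXA11, HOXA13, HOXB1, HOXC12, HOXD1, HOXD10 and HOXD12 were weaker still, and HOXB1, a hindbrain gene, was above 0 in 1 library. Of the 13 weak members, 7 had their highest group mean in secondary June males: HOXA10, HOXA11, HOXB1, HOXC12, HOXC13, HOXD1 and HOXD13. For HOXC13 that mean was 0.837 and for HOXD13, a gene of the limb ends, 0.707. Libraries of that group also listed the most genes above 0, at 16036 to 16358 against 15367 to 16127 in the other groups, and the part of this in the HOX values was not tested.

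Levels of the detected members varied over the groups. In HOXC, HOXC8 and HOXC6, genes of the thoracic region, had group means of 76.9 to 143 and 65.4 to 102. HOXC4 and HOXC5, used in the neck and upper thorax, had group means of 18.3 to 43.1 and 4.54 to 15.3, HOXC9 12.8 to 29.1, HOXC10 0.637 to 2.84 and HOXC11 0.0467 to 1.32. In every library the summed value of the 9 HOXC genes lay between 210.32 and 287.89.

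In HOXD, HOXD8 had group means of 12.8 to 21.9, HOXD9 5.26 to 17.2 and HOXD3 1.62 to 3.04. Among HOXB genes, the means were 8.04 to 13.5 for HOXB2, 9.37 to 14.5 for HOXB3, 1.11 to 4.50 for HOXB6, 4.86 to 17.1 for HOXB7, 0.490 to 2.14 for HOXB8 and 0.340 to 2.28 for HOXB9. Among HOXA genes they were 0.387 to 1.05 for HOXA3, 2.01 to 3.87 for HOXA4, 0.857 to 2.07 for HOXA5, 3.82 to 7.48 for HOXA7 and 0.503 to 1.42 for HOXA9. The ratio of the highest to the lowest group mean was small for HOXB3, at 1.55, and large for HOXB9, at 6.71. For HOXC11 it was 28.4, over a lowest group mean of only 0.0467. Over the 12 pairs of groups that differ in 1 factor only, each detected member changed in at least 1 and at most 10. As these are bulk libraries, a smaller share of cells that express a gene and less RNA per cell cannot be told apart.

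Differences are on the log2(value + 1) scale, where changes of low genes appear smaller than they are, and come from a limma fit of all 24 libraries with Benjamini-Hochberg adjustment over 13049 genes. Calls are genes with an adjusted p below 0.05. The labels number the 3 libraries of a group as biological replicates without saying that they came from separate animals or cultures, so the p-values measure the spread between these libraries, which may be technical. When the 8 group means were used as single samples, limma called 0 HOX members in each of the 6 comparisons that follow, with 3, 0, 4, 2, 0 and 3 members at an unadjusted p under 0.05 in the order they are given.

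In June, secondary papilla cells had more RNA of HOXC9, HOXC10 and HOXC11 and less of HOXB6, HOXC6, HOXC8 and HOXD8 than primary cells, in each sex. Of the 22 detected members, 13 were called, or 59.1% against 61.9% of all genes tested, a share close to the background. Of these 6 were higher (31.6% of all genes) and 7 lower (30.3% of all genes). The median log2 difference was 0.06 over the HOX members and 0.0041 over all genes. HOXC4, HOXC9, HOXC10 and HOXC11 were higher along with HOXA5 and HOXA9. HOXB2, HOXB3, HOXB6 and HOXB8 were lower, and so were HOXC6, HOXC8 and HOXD8. Within the sexes, 1 of 6 HOXB members was lower in males (HOXB6) and 5 of 6 in females (HOXB2, HOXB3, HOXB6, HOXB7 and HOXB8). In either direction, 59.6% of all genes were called in males and 49.3% in females.

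HOXC10 had values of 2.16, 2.09 and 2.16 in secondary June males and 2.82, 3.04 and 2.16 in secondary June females, against 0.86, 0.96 and 1.14 in primary June males and 0.80, 0.78 and 0.77 in primary June females. The follicle types did not overlap in either sex, and the log2 difference was 0.85 (SE 0.0811, limma adjusted p = 4.97e-09). HOXC11, its neighbour in the cluster, had 1.37, 1.33 and 1.27 in secondary June males and 1.21, 0.92 and 0.74 in secondary June females, against 0.04, 0.08 and 0.16 in primary June males and 0.20, 0.25 and 0.34 in primary June females. It too was separated in both sexes, with a log2 difference of 0.86 (SE 0.0757). HOXC11 passed the filter mainly through secondary June, with 3 male libraries and 1 female library there at or over 1 and 1 in primary October females, so its differences that involve secondary June are given without a p-value. HOXA9, a gene of the proximal forelimb in mice, showed a smaller gap. It had 1.53, 1.50 and 1.24 in secondary June males and 0.97, 1.15 and 0.94 in secondary June females, against 0.79, 0.37 and 0.35 in primary June males and 0.56, 0.87 and 0.54 in primary June females (log2 difference 0.49, SE 0.0688). The 6 libraries in which HOXA9 reached 1 are all of secondary cells, so this difference too is a description, with no p-value. The counts of calls include HOXA3, HOXA9 and HOXC11 and are descriptions in the same way.

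HOXB6 went the other way. Its values were 1.20, 1.18 and 0.96 in secondary June males and 2.53, 2.28 and 2.05 in secondary June females, against 2.87, 2.51 and 2.57 in primary June males and 4.63, 4.64 and 4.23 in primary June females. Secondary cells were lower within each sex without overlap, and the log2 difference was -0.77 (SE 0.0542, limma adjusted p = 2.71e-11). The plot of HOXB levels shows this gap in both months.

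In June the sexes differed in several members. Secondary against primary cells gave 15 HOX calls in males (59.6% of all genes called) and 17 in females (49.3% of all genes called). Of these, 8 were called in the same direction in both sexes (HOXA9, HOXB6, HOXC6, HOXC8, HOXC9, HOXC10, HOXC11 and HOXD8) and 4 in opposite directions (HOXA4, HOXC4, HOXC5 and HOXD9). The difference of the sexes was tested directly and called for 11 members, against 41.2% of all genes.

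HOXD9 is the clearest of the opposite members in June. It had 13.01, 12.63 and 13.84 in secondary June males, against 10.08, 10.98 and 9.46 in primary June males. In females it had 12.04, 11.67 and 12.70 in secondary cells, against 18.62, 15.21 and 17.90 in primary cells. The male minus female difference was 0.81 (SE 0.106, limma adjusted p = 1.86e-06). HOXA4 had 3.16, 4.19 and 4.27 in secondary and 2.64, 3.10 and 2.45 in primary June males, with 2.90, 3.24 and 2.86 in secondary and 3.66, 4.17 and 3.68 in primary June females (male minus female difference 0.65, SE 0.145, limma adjusted p = 0.000907). For both genes secondary cells were above primary cells in males and below them in females.

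HOXB3 had 11.59, 11.95 and 10.80 in secondary and 11.20, 11.00 and 12.52 in primary June males, which overlap. In June females it had 9.87, 9.22 and 9.02 in secondary and 14.76, 14.93 and 13.08 in primary cells, which do not (male minus female difference 0.54, SE 0.0988, limma adjusted p = 0.00013). HOXA7 had 6.14, 6.96 and 5.84 in secondary and 4.01, 6.05 and 4.12 in primary June males, against 6.91, 6.65 and 5.90 in secondary and 7.16, 7.42 and 7.85 in primary June females. Its male minus female difference of 0.55 (SE 0.181, limma adjusted p = 0.0186) missed the threshold without secondary June male library 2 or primary June male library 1 or 3, with adjusted p-values of 0.0527 to 0.0585.

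The calls of HOXC4, HOXA5 and HOXB8 in June had adjusted p-values near the threshold, at 0.0388, 0.0448 and 0.031, and were lost when any of 6, 8 and 7 single libraries was left out.

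In October HOXB6 was lower in secondary than in primary cells in both sexes, and most other calls were of 1 sex. Over both sexes, secondary cells had calls for 6 of 22 members, or 27.3% against 31.5% of all genes, with 1 higher (17.5% of all genes) and 5 lower (14.1% of all genes). HOXB3, HOXB6, HOXB7 and HOXB8 were lower, HOXC8 was lower and HOXA4 was higher. HOXB3 (limma adjusted p = 0.024) was called in neither sex alone, and its call was lost without any 1 of 5 libraries, with adjusted p-values of 0.0542 to 0.0756: secondary October female 2 or 3, secondary October male 1, primary October female 2 or primary October male 2. In males the lower members were HOXB6, HOXB7, HOXB8 and HOXB9. In females they were HOXB6, HOXC5, HOXC6, HOXC8, HOXC11 and HOXD9, so that 4 of 7 HOXC members were lower there. Of all genes, 35.5% were called in females in either direction. HOX members had a median log2 difference of -0.08, against -0.0001 over all genes. After rescaling libraries to the same total of 1000000, 8 members were lower and 0 higher. That rescaling shifted all 13049 genes too, with 2691 lower and 1649 higher, against 1834 lower and 2282 higher in the main fit. Over both sexes HOXC8 was the only one of 7 HOXC members called, and HOXD8, at -0.13 with a limma adjusted p of 0.0529, came nearest to a call in HOXD.

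HOXB6 had 1.17, 1.33 and 1.39 in secondary October males and 2.60, 2.74 and 3.10 in secondary October females, against 4.33, 3.83 and 4.03 in primary October males and 4.30, 4.07 and 4.44 in primary October females. No secondary library reached a primary one, and the log2 difference was -0.80 (SE 0.0542, limma adjusted p = 5.41e-11). HOXB6 was lower in secondary cells in all 4 pairs of a month and a sex, with log2 differences of -1.14 in October males, -0.47 in October females, -0.79 in June males and -0.74 in June females. HOXB6 was also the only member called in the same direction in both sexes in October, out of 5 calls in males (18.5% of all genes called) and 7 in females (35.5% of all genes called).

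**Figure D2:**
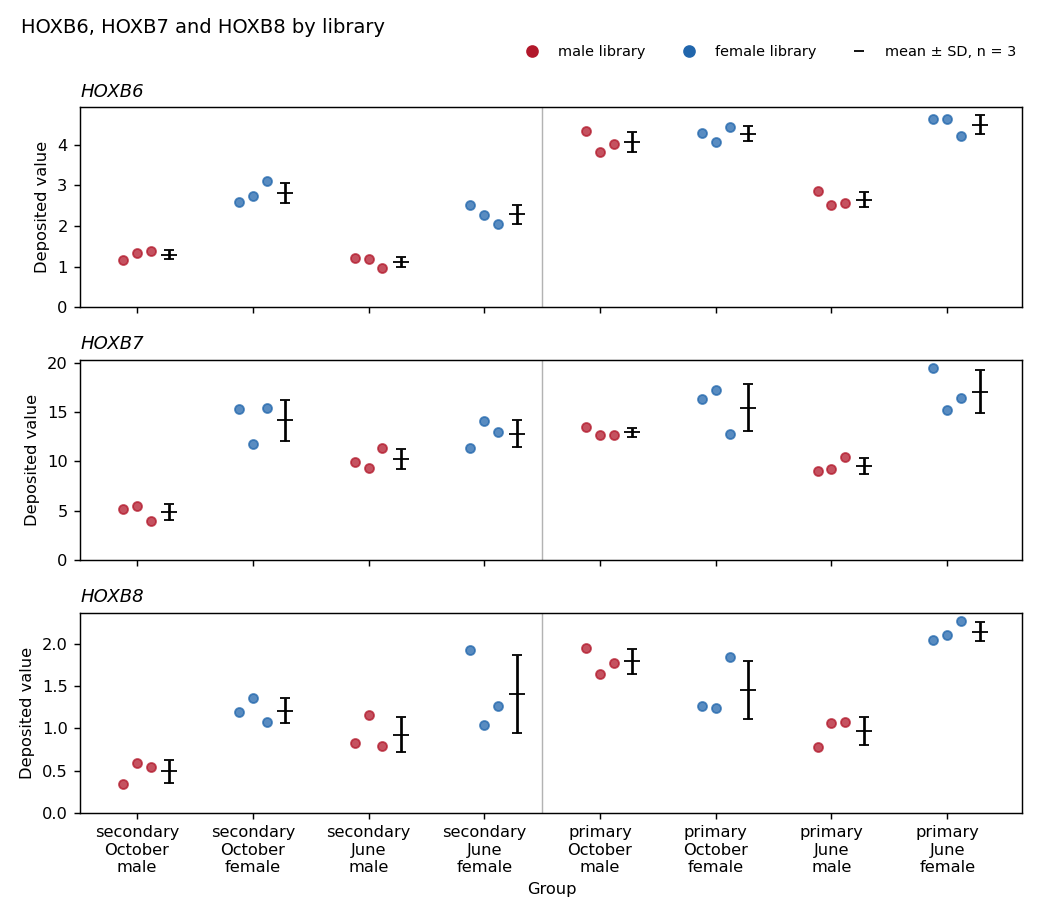
Deposited values of HOXB6, HOXB7 and HOXB8 in each library (points, red for male and blue for female) by group, with the mean and SD of 3 libraries in black. Secondary October males are lowest for HOXB7 and HOXB8, and HOXB6 is lower in secondary than in primary cells in all 4 pairs of a month and a sex.

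HOXB7 and HOXB8, neighbours in the cluster, differed between follicle types in October in males. In June they were called lower in secondary cells in females, with log2 differences of -0.38 and -0.40, and were not called in males. The October values follow. HOXB7 had 5.13, 5.46 and 3.99 in secondary and 13.44, 12.70 and 12.69 in primary October males, against 15.27, 11.76 and 15.44 in secondary and 16.37, 17.21 and 12.73 in primary October females. HOXB8 had 0.34, 0.59 and 0.54 in secondary and 1.95, 1.65 and 1.78 in primary October males, against 1.20, 1.36 and 1.07 in secondary and 1.27, 1.24 and 1.85 in primary October females. For both genes the follicle types separated in males and overlapped in females. Over both sexes the log2 differences were -0.69 for HOXB7 (SE 0.0844, limma adjusted p = 8.74e-07) and -0.53 for HOXB8 (SE 0.0848, limma adjusted p = 3.53e-05). In males alone they were -1.26 and -0.91, and in females -0.12 and -0.14, which were not called.

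The sexes themselves differed in this effect for 8 members, against 26.7% of all genes. The male minus female difference was -1.14 for HOXB7 (SE 0.169, limma adjusted p = 1.57e-05) and -0.77 for HOXB8 (SE 0.17, limma adjusted p = 0.00151). It was larger for HOXB9, which had 0.29, 0.22 and 0.51 in secondary and 1.43, 1.58 and 0.74 in primary October males, against 2.24, 2.30 and 2.30 in secondary and 0.82, 0.81 and 0.95 in primary October females. HOXB9 was thus lower in secondary cells in males and higher in females, with a difference of -1.55 (SE 0.21, limma adjusted p = 4.84e-06).

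Secondary October females, the group with the highest HOXB9, were also the group with the highest keratinocyte marker sum, at 314.04 to 340.51. A link between that sum and the HOXB9 value was not tested. HOXD9 went opposite ways too, with 13.19, 11.83 and 14.16 in secondary and 10.07, 9.61 and 9.16 in primary October males, against 4.87, 5.56 and 5.34 in secondary and 6.40, 6.94 and 6.42 in primary October females (difference 0.68, SE 0.106, limma adjusted p = 3.24e-05). For HOXD9, all October male values were above all October female ones.

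HOXA4 was the member called higher in secondary October cells. It had 3.64, 3.03 and 3.99 in secondary and 2.97, 2.93 and 2.35 in primary October males, and 2.18, 2.56 and 2.09 in secondary and 1.96, 1.87 and 2.21 in primary October females. The log2 difference of 0.20 (SE 0.0723, limma adjusted p = 0.039) was not called without secondary October female library 2, secondary October male library 1 or 3, primary October female library 1 or 2, or primary October male library 3, with adjusted p-values of 0.0666 to 0.118. It was also not called with a common library total (log2 difference 0.17, adjusted p = 0.083), with no filter on low values (adjusted p = 0.0503) or in a fit of the compared groups alone (adjusted p = 0.0601).

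On the average of the sexes, secondary cells in October had less RNA of most HOX members than in June. Within the sexes, 56.5% of all genes were called in males and 51.3% in females, in either direction. Of the 22 members, 11 were lower in males and 10 in females, and only HOXA7, HOXA9, HOXC11 and HOXD3 in both. HOXA3, HOXA9 and HOXC11 are in these counts as descriptions, as given above. Of the 22 detected members 19 were called, or 86.4% against 62.9% of all genes, 4 of them higher (29.0% of all genes) and 15 lower (33.9% of all genes). The median log2 difference was -0.26 over HOX members and -0.01 over all genes. Lower members included 5 of 6 in HOXA, 3 of 6 in HOXB, 4 of 7 in HOXC and 3 of 3 in HOXD. HOXB3, HOXB6, HOXC6 and HOXC8 were higher.

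HOXC8 had 106.90, 107.91 and 108.54 in secondary October males and 133.38, 128.66 and 120.12 in secondary October females, against 76.99, 76.55 and 77.15 in secondary June males and 83.80, 82.58 and 81.09 in secondary June females. The months did not overlap, and the log2 difference was 0.55 (SE 0.0278, limma adjusted p = 7.11e-14). HOXC11 had 0.16, 0.12 and 0.12 in October males and 0.45, 0.49 and 0.23 in October females of the secondary type, below all the secondary June values given above (log2 difference -0.76, SE 0.0757). HOXC8 was thus higher and HOXC11 lower in October than in June in secondary cells of both sexes.

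HOXA7 had 3.68, 4.25 and 5.54 in secondary October males and 3.70, 4.65 and 3.12 in secondary October females, each below all of the secondary June values (log2 difference -0.53, SE 0.0905, limma adjusted p = 2.32e-05). HOXD9 was lower on average, by a log2 difference of -0.54 (SE 0.0532, limma adjusted p = 8.07e-09). The difference was -1.07 in females, while in males, at -0.01, the months overlapped and no change was called.

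Within each sex, October against June in secondary cells gave 16 HOX calls in males (56.5% of all genes called) and 15 in females (51.3% of all genes called). HOXA7, HOXA9, HOXB3, HOXC8, HOXC11 and HOXD3 were called in the same direction in both, and HOXB9, HOXC4, HOXC5 and HOXC9 in opposite directions. The difference of the sexes was called for 13 members, against 37.7% of all genes. HOXC4 and HOXC5 were higher in October in males, with log2 differences of 0.18 and 0.32, and lower in females, with -1.03 and -1.23. HOXC9 was lower in males, at -0.58, and higher in females, at 0.63. HOXB9 was likewise lower in males, at -0.52, and higher in females, at 0.65. Its June values in secondary cells were 1.17, 0.78 and 0.80 in males and 1.57, 0.99 and 0.78 in females, so October lay outside the June range in each sex. The male minus female differences were 1.55 for HOXC5 (SE 0.107, limma adjusted p = 7.72e-11), 1.21 for HOXC4 (SE 0.0864, limma adjusted p = 1.45e-10), -1.21 for HOXC9 (SE 0.0943, limma adjusted p = 5.7e-10) and -1.17 for HOXB9 (SE 0.21, limma adjusted p = 0.00011).

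Primary cells in October had less RNA of HOXD3 than in June in both sexes, while most other HOXD and HOXC members had a month difference that was not the same in the sexes. HOXC8, HOXC9, HOXC10 and HOXC11 were higher in females. In males HOXC9 and HOXC10 were lower, and HOXC8 and HOXC11 were not called. Of 22 members 15 were called, or 68.2% against 60.9% of all genes, with 6 higher (28.6% of all genes) and 9 lower (32.3% of all genes). Median log2 differences were 0.07 over HOX members and -0.0035 over all genes. Over both sexes HOXB3, HOXB6, HOXC8, HOXC9, HOXC10 and HOXC11 were higher. The lower members were HOXA3, HOXA4, HOXA7, HOXB2, HOXC4, HOXC5, HOXD3, HOXD8 and HOXD9.

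HOXD3 had 1.99, 1.67 and 1.79 in primary October males and 2.01, 1.48 and 1.72 in primary October females, against 2.33, 2.30 and 2.63 in primary June males and 2.84, 2.21 and 2.82 in primary June females. The months did not overlap (log2 difference -0.34, SE 0.0637, limma adjusted p = 7.62e-05). HOXD8 had 16.06, 17.44 and 15.39 in October males and 14.91, 14.55 and 13.80 in October females, against 18.53, 19.37 and 17.08 in June males and 22.79, 22.86 and 19.98 in June females of the primary type (log2 difference -0.36, SE 0.0497, limma adjusted p = 1.48e-06). In males 1 October library exceeded 1 June library, and in females the months were apart. HOXD9 had the largest fall by this measure among called members with a mean of at least 1, at -0.67 (SE 0.0532, limma adjusted p = 2.94e-10), made of -0.07 in males, which was not called, and -1.26 in females.

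HOXC10 was higher by 0.41 on average (SE 0.0811, limma adjusted p = 0.000168), but the sexes went opposite ways. It had 0.94, 0.44 and 0.53 in primary October males and 2.54, 2.78 and 3.19 in primary October females. Against the primary June values given above, that is a log2 difference of -0.29 in males and 1.10 in females. HOXA5, HOXB8 and HOXC9 were also called in opposite directions in the sexes, and HOXD3 was the only member called in the same direction, out of 13 calls in males (55.5% of all genes called) and 13 in females (48.2% of all genes called).

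The difference of the sexes was called for 18 of the 22 members in primary cells, against 36.8% of all genes. It was -1.49 for HOXC9 (SE 0.0943, limma adjusted p = 1.4e-11), -1.39 for HOXC10 (SE 0.162, limma adjusted p = 3.54e-07), 1.19 for HOXD9 (SE 0.106, limma adjusted p = 5.27e-09) and 0.88 for HOXA5 (SE 0.196, limma adjusted p = 0.00112). HOXA5, known for its role in the mouse lung, had 1.87, 1.18 and 2.05 in October and 1.06, 0.53 and 0.98 in June in primary males, against 1.24, 1.26 and 1.73 in October and 2.04, 1.79 and 2.30 in June in primary females. It was higher in October in males and lower in females.

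**Figure D3:**
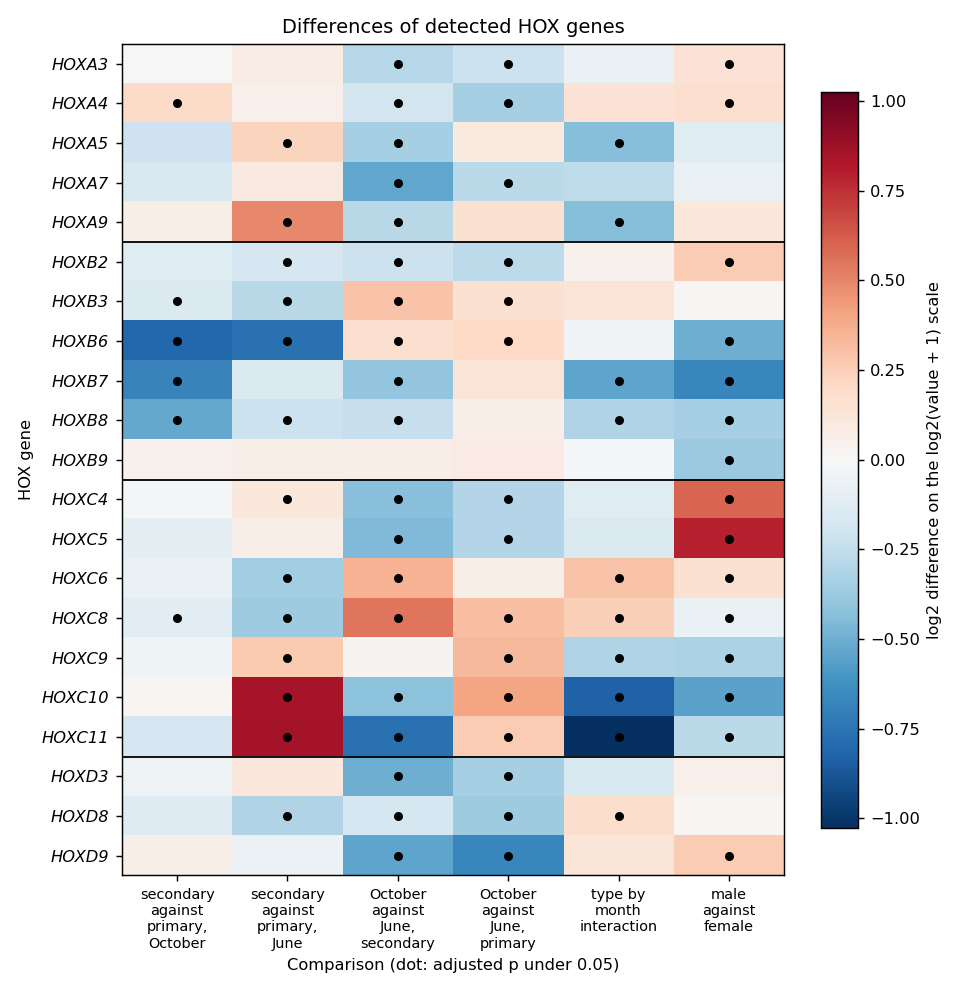
Log2 difference (colour, red for higher and blue for lower, on the log2(value + 1) scale) of 21 detected HOX genes in the 6 comparisons, with a dot for an adjusted p under 0.05 in limma. HOXB6 is blue with a dot in secondary against primary cells in both months, and HOXD3, HOXD8 and HOXD9 are blue with a dot in October against June in both follicle types.

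The follicle type effect itself changed between months for 10 of the 22 members, or 45.5% against 46.2% of all genes. In the October minus June difference of the effects 3 were higher (23.3% of all genes) and 7 lower (22.9% of all genes). With a common library total 12 members were called, 2 higher and 10 lower. All genes shifted the same way there, with 2094 higher and 4266 lower of 13049 and a median log2 difference of -0.0759. For HOXC11 this difference was -1.03 (SE 0.107). It was higher in secondary cells in June, but in October its secondary values given above stood against 0, 0.12 and 0.02 in primary males and 0.98, 1.17 and 0.59 in primary females, with no call over both sexes. HOXC10 likewise lost its June gap, with 0.84, 0.67 and 1.05 in secondary October males and 2.00, 2.74 and 2.66 in secondary October females, close to the primary October values (difference -0.83, SE 0.115, limma adjusted p = 2.95e-06).

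For HOXB7 the difference was -0.54 (SE 0.119, limma adjusted p = 0.000759), with -1.34 in males and 0.27 in females, where it was not called. HOXA5 had 1.42, 1.92 and 1.15 in secondary October males, 0.78, 0.94 and 1.11 in secondary October females, 1.85, 1.35 and 1.38 in secondary June males and 2.12, 1.82 and 2.26 in secondary June females. Set against the primary values above, its effect of 0.23 in June was followed by -0.21 in October, which was not called (difference -0.44, SE 0.138, limma adjusted p = 0.0121). HOXA9, HOXC10 and HOXC11 were called in the same direction in both sexes, and HOXB6, HOXB9 and HOXC5 in opposite directions, among 12 calls in males (43.9% of all genes called) and 10 in females (40.2% of all genes called). HOXC6, HOXC8 and HOXD8 had a less negative effect in October than in June: over both sexes they were lower in secondary cells in June, by more than in October. For HOXC6 and HOXC8 this was called in males and not in females. The calls of HOXD8 (limma adjusted p = 0.0364) and HOXB8 (limma adjusted p = 0.0387) were lost without any 1 of 13 and any 1 of 11 libraries, and HOXD8 was called in neither sex alone.

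On average, males had more RNA of HOXC4, HOXC5 and HOXC6 and less of HOXC8 to HOXC11 and HOXB6 to HOXB9 than females. Over the 4 combinations of follicle type and month, 15 of 22 members were called, or 68.2% against 50.0% of all genes, with 7 higher (25.5% of all genes) and 8 lower (24.5% of all genes). All 7 detected HOXC members were among them: HOXC4, HOXC5 and HOXC6 were higher and HOXC8, HOXC9, HOXC10 and HOXC11 lower in males. HOXB6, HOXB7, HOXB8 and HOXB9 were lower in males and HOXB2 was higher. Within single combinations, HOXB2 was called higher in both June combinations and in neither October one. HOXB9 was called lower in secondary October cells only. HOXB6, HOXB7 and HOXB8 were called lower in each combination except primary October cells, where 0 of 6 HOXB members were called. HOXC8 was called higher in males in primary June cells, with group means of 118.24 against 89.23, and lower in the other combinations. HOXA4 and HOXD9 were higher on average, but both were called lower in males in primary June cells. Their group means there were 2.73 against 3.84 for HOXA4 and 10.2 against 17.2 for HOXD9. HOXA3 was higher on average too, which is a description only, since it passed the filter solely through secondary June males. The count of 15 includes it. The median log2 difference over HOX members was 0.01, against 0.0019 over all genes.

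The averages joined unlike months. In October the HOXC cluster was split by position in both follicle types, and all 7 detected members were called in each. HOXC4 had 41.52, 38.49 and 39.78 in secondary October males, against 19.31, 18.73 and 19.55 in secondary October females. In primary October cells it had 42.66, 43.79 and 42.82 in males, against 17.55, 19.42 and 17.79 in females. HOXC5, the next gene, had 14.13, 15.51 and 16.16 in secondary and 14.92, 13.83 and 13.37 in primary October males, against 3.82, 4.77 and 5.04 in secondary and 5.56, 5.90 and 5.95 in primary October females. Male values of both genes were far above the female ones, with no overlap.

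Further along the cluster the direction turned. HOXC9 had 13.90, 14.11 and 12.79 in secondary and 13.33, 13.22 and 11.80 in primary October males, against 26.05, 24.26 and 27.00 in secondary and 28.91, 29.37 and 28.95 in primary October females. HOXC10 had the lower male values given above, at most 1.05 in males and at least 2 in females in October. The log2 differences of males against females in October, along the cluster, were 1.02 for HOXC4, 1.56 for HOXC5, 0.48 for HOXC6, -0.24 for HOXC8, -0.87 for HOXC9, -0.90 for HOXC10 and -0.29 for HOXC11 in secondary cells. In primary cells they were 1.20 for HOXC4, 1.14 for HOXC5, 0.15 for HOXC6, -0.33 for HOXC8, -1.13 for HOXC9, -1.24 for HOXC10 and -0.86 for HOXC11. The sign changed between HOXC6 and HOXC8 in both follicle types.

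**Figure D4:**
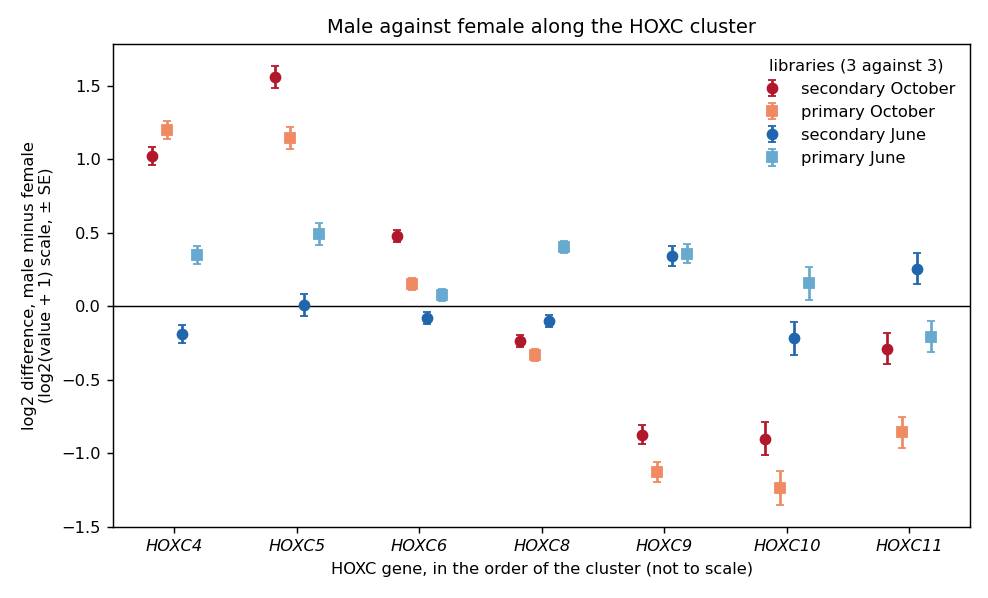
Log2 difference of males minus females with its standard error (vertical axis, log2(value + 1) scale, 3 against 3 libraries) for HOXC4 to HOXC11 in cluster order, by follicle type and month. October points lie above 0 from HOXC4 to HOXC6 and below 0 from HOXC8 to HOXC11, and June points lie between -0.22 and 0.49.

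Keratinocyte marker sums in the same groups were 68.7 to 77.58 in secondary October males against 314.04 to 340.51 in secondary October females, and 100.13 to 106.42 in primary October males against 72.38 to 75.52 in primary October females. Their part in the HOXC values was not tested.

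In June the pattern along the cluster was not found. HOXC4 had 33.02, 33.62 and 39.39 in secondary and 40.22, 36.94 and 41.67 in primary June males, against 40.24, 41.54 and 39.05 in secondary and 30.64, 32.68 and 29.31 in primary June females. Its log2 differences were -0.19 in secondary and 0.35 in primary cells. HOXC5 had 11.73, 11.36 and 12.91 in secondary and 13.95, 12.64 and 14.72 in primary June males, against 12.15, 11.73 and 11.86 in secondary and 9.26, 9.94 and 9.32 in primary June females. The sexes overlapped in secondary cells for both genes and were apart in primary cells.

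HOXC9 was higher in June males in both follicle types, which is opposite to October. It had 20.09, 21.82 and 20.63 in secondary and 17.81, 16.82 and 17.20 in primary June males, against 17.79, 16.84 and 14.35 in secondary and 12.52, 13.77 and 13.53 in primary June females, with log2 differences of 0.34 and 0.36. HOXC10 and HOXC11 were not called in either follicle type.

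**Figure D5:**
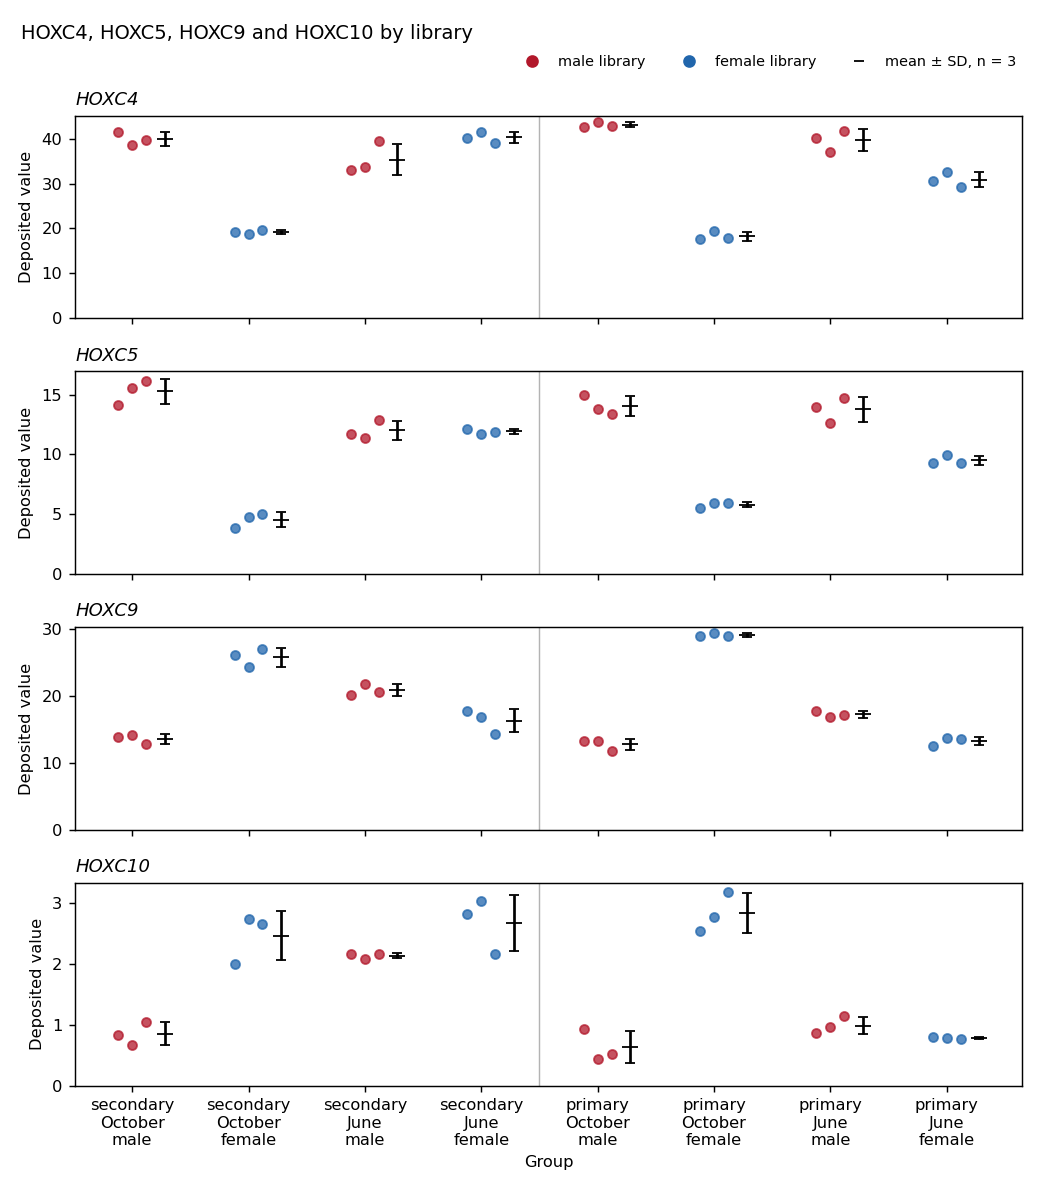
Deposited values of HOXC4, HOXC5, HOXC9 and HOXC10 in each library (points, red for male and blue for female) by group, with the mean and SD of 3 libraries in black. October females of both follicle types are low for HOXC4 and HOXC5 and high for HOXC9.

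Over all combinations the log2 differences were 0.80 for HOXC5 (SE 0.0379, limma adjusted p = 3.6e-14) and 0.59 for HOXC4 (SE 0.0306, limma adjusted p = 1.61e-13). HOXC5 had a lowest, median and highest value of 11.36, 13.89 and 16.16 in the 12 male libraries, against 3.82, 7.6 and 12.15 in the 12 female ones. HOXC10 was lower by a log2 difference of -0.55 (SE 0.0574, limma adjusted p = 3.49e-08), with calls in October only, since -0.22 in secondary and 0.15 in primary June cells did not pass. The comparison of single combinations gave 16 HOX calls in secondary October cells (40.4% of all genes called), 9 in primary October cells (33.6%), 11 in secondary June cells (39.5%) and 15 in primary June cells (45.4%).

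HOXB7 was lower in males by a log2 difference of -0.67 (SE 0.0597, limma adjusted p = 2.87e-09). Outside the October values above, it had 9.94, 9.36 and 11.31 in secondary June males, against 11.40, 14.06 and 12.98 in secondary June females. Primary June males had 8.99, 9.20 and 10.45, against 19.48, 15.25 and 16.42 in primary June females. Males were lower without overlap in 3 of the 4 combinations, and in primary October cells the difference of -0.23 was not called. HOXD9 was higher in October males, with log2 differences of 1.17 in secondary and 0.48 in primary cells. In June its log2 differences were 0.11 in secondary cells, which was not called, and -0.70 in primary cells.

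HOX proteins bind DNA with TALE cofactors, the PBX, MEIS and PKNOX families. Of 9 listed cofactors 6 were tested. In secondary against primary cells in June 4 of the 6 were lower and 0 higher, where 30.3% of all genes were lower, with a median log2 difference of -0.24. MEIS2 was lower by a log2 difference of -0.49 (limma adjusted p = 4.57e-08), PBX3 by -0.33 and MEIS1 by -0.15. In October 2 were lower, MEIS1 among them, and 1 higher (PBX2), where 31.5% of all genes were called. In October against June 3 of 6 were higher in secondary cells, where 29.0% of all genes were higher (MEIS2 by 0.41, PBX2 by 0.18 and PBX3 by 0.19), while in primary cells 1 was lower and 1 higher (PKNOX1, by 0.18), where 60.9% of all genes were called. In males 3 were higher and 1 lower than in females, where 50.0% of all genes were called. CDX genes, activators of trunk HOX genes in the embryo, were not detected: CDX2 and CDX4 were listed at 0 and CDX1 reached at most 0.18.

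Of 33 other transcription factors of limb, trunk and face position, 20 were tested, and most were called. In secondary against primary cells in June 4 were higher and 13 lower, where 61.9% of all genes were called, with a median log2 difference of -0.40. FOXD1 was lower by a log2 difference of -1.95, TBX3, a limb and flank gene, by -1.02 and PITX1, which specifies the hindlimb, by -0.97. In October 4 were higher and 9 lower, where 31.5% of all genes were called, with HAND2 at -0.46 and MEOX2 at -0.47. October against June gave 5 higher and 9 lower in secondary cells, where 62.9% of all genes were called, with EN1, a gene of ventral limb skin, higher by 1.20 and MSX2 by 1.32. In primary cells it gave 6 higher and 11 lower, where 60.9% of all genes were called, with TBX3 lower by -1.50 and SHOX2 by -0.94 on the log2 scale, and EN1 higher by 0.84. All 20 were called between males and females, 12 higher and 8 lower in males, where 50.0% of all genes were called. TBX4, a hindlimb gene, was listed at 0, TBX5, its forelimb counterpart, reached at most 1.4, and TBX15, a trunk dermis gene, had values of 49.74 to 69.01. These lists were chosen with earlier results of the same data known, so their counts describe the libraries and support nothing further.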

How the data were processed

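Per the labels' protocols, RNA was isolated by a TRIzol method and sequenced from both ends after NEBNext Ultra library preparation. The deposited tables give 1 normalised expression signal per gene and library, with 2 decimals; kallisto 0.46.1 and sleuth 0.30.0 are named in the submitters' processing notes, with no role. Build, annotation and read depth are not stated in the sources used here. The signal is not a count, so no count test was run, as the design foresaw.

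The 13049 genes that reached a value of 1 in 3 or more libraries were kept, and log2(value + 1) was fitted in limma 3.58.1 (R 4.3.3) with 8 group means, a variance trend and robust estimation, all 24 libraries sharing 1 spread. The fit was tested on simulated data. Follicle type and month comparisons average the sexes equally. By rule, named genes are the 4 called HOX members with the largest log2 difference in each comparison, restricted to a group mean of 1 or more on either side, and up to 4 called genes by p from each list. HOX members and lists were chosen with earlier results of these data known. The ARS1.2 table served only for names and gene order. Alternatives were other filters, pseudocounts, scalings and spreads, fits of the compared groups alone, each sex or combination alone, the group means as samples, each library left out, and a replicate block. Sequences of the members were not used here, and some genes that this rule names or that were detected are not reported here by name.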

Additional observations from a re-analysis of the deposited data

Results flagged for a closer look

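The effect of follicle type differed between October and June, by the test of the difference itself (October minus June, log2 scale, limma), by -1.03 for HOXC11, -0.83 for HOXC10, -0.54 for HOXB7 and -0.44 for HOXA5. HOXC11 passed the filter on low values mainly through secondary June libraries, so its value is a description.

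The effect of follicle type also differed between males and females. In June the male minus female difference was 0.81 for HOXD9, 0.65 for HOXA4, 0.55 for HOXA7 and 0.54 for HOXB3. In October it was -1.55 for HOXB9, -1.14 for HOXB7, -0.77 for HOXB8 and 0.68 for HOXD9.

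The difference between October and June was unlike in the sexes too. In secondary cells the male minus female difference was 1.55 for HOXC5, 1.21 for HOXC4, -1.21 for HOXC9 and -1.17 for HOXB9. In primary cells it was 1.19 for HOXD9, 0.88 for HOXA5, -1.39 for HOXC10 and -1.49 for HOXC9.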

How the results depend on the processing

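Treating each of the 8 group means as a sample, limma called 0 HOX members in each of the 6 comparisons, and over all genes it called 308 and 0 for follicle type in June and October, 1 and 0 for month in secondary and primary cells, 1 in the interaction and 10 between the sexes. Leaving out 1 library gave 10 to 13 HOX calls for follicle type in June, 4 to 8 in October, 17 to 19 for month in secondary and 14 to 16 in primary cells, 8 to 11 in the interaction and 15 to 16 between the sexes. The sexes in primary October cells alone gave 9. Same-numbered libraries of different groups had a correlation over 0.1 in 25 of 84 pairs, against 33 of 168 pairs with other numbers. The median correlations were 0.0335 and -0.0167, so whether replicate numbers pair the samples was not settled. With the replicate block the counts were 13, 7, 19, 15, 10 and 15 in the same order. Over the 40 named differences, 1257 of 1269 settings other than single groups and group means kept the call, 12 lost it and 0 reversed; the losses were HOXA4 for follicle type in October and HOXA7 for the sexes in June, given above. Within 1 sex or combination 41 of 56 kept it, 11 lost it and 4 reversed: HOXC10 for month in primary males (-0.29), HOXB7 for the interaction in females (0.27, not called), HOXC4 between the sexes in secondary June cells (-0.19) and HOXC10 in primary June cells (0.15, not called). Their cause was not tested. Read depth is not known, so no counting error can be given for low members such as HOXC11.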

Other observations

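Polycomb proteins keep HOX clusters silent and Trithorax-type proteins keep them active in development. All 22 Polycomb genes and all 12 Trithorax-type genes listed passed the filter. EZH2, the Polycomb methyltransferase, had a log2 difference of 1.10 in secondary against primary cells in June (limma adjusted p = 4.11e-17), while its relative EZH1 had -0.62. In this comparison 8 Polycomb genes were higher and 8 lower, with a median log2 difference of -0.06, against 61.9% of all genes called. In October 1 was higher and 7 lower, where 31.5% of all genes were called, with EZH1 at -0.29, CBX6 at -0.46 and CBX7 at -0.37. October against June in secondary cells gave 6 higher and 7 lower, where 62.9% of all genes were called, with EZH2 at -0.28. In primary cells it gave 10 higher and 7 lower, where 60.9% were called, with EZH2 at 0.82. For EZH2 the effect of follicle type differed between months by -1.09 (limma adjusted p = 9.05e-14).

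Of the 12 Trithorax-type genes, 6 were higher and 4 lower in secondary against primary cells in June (61.9% of all genes called), and 1 higher and 2 lower in October (31.5% of all genes called). In October against June secondary cells had 2 higher and 1 lower (62.9% of all genes called), and primary cells 5 higher and 2 lower (60.9% of all genes called). Between males and females 2 were higher and 1 lower (50.0% of all genes called). KDM6A, an X-linked histone demethylase, was the lower one, with a log2 difference of -0.63 (limma adjusted p = 5.62e-13).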
